A study of Mus musculus with 8 samples.

Results

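Lactate dehydrogenases interconvert pyruvate and lactate, and membrane transporters move lactate and glucose into and out of cells. The 9 genes of these families examined here in mouse testis were the lactate dehydrogenase subunits Ldha, Ldhb and Ldhc, the monocarboxylate (lactate) transporters Slc16a1, Slc16a3 and Slc16a7, the glucose transporters Slc2a1 and Slc2a3, and Bsg, which encodes basigin, the partner protein of lactate transporters. Every probe annotated to one of the 9 symbols was taken, giving 14 of the 45281 probes on the array and 9 of its 19053 gene symbols. Of these, 8 probes of 6 genes were detected above background (detection p below 0.01) in at least 1 of 8 arrays, as were 19089 of all probes, and only such probes, called expressed here, were tested.

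Total RNA from whole testes of C57BL/6 males culled at 16 days post partum (dpp) was measured on Illumina mouse WG-6 Beadchips. The 4 Tex19.1-/- animals lacked both copies of Tex19.1, a germ cell gene, and the 4 controls are labelled Tex19.1+/- heterozygotes, although the study's methods name wild-type as well as heterozygous littermates as controls. The line had been backcrossed to C57BL/6 only a few times, from a mixed background, before the arrays were run. DNA of the earlier background may remain. Each array held 1 animal, named by genotype and replicate number, and the number of arrays limits the precision. Values are log2 quantile-normalized signals, and a probe is called changed at an adjusted p of at most 0.01 in limma, after Benjamini-Hochberg adjustment over all 19089 expressed probes. Of these, 311 were called lower and 27 higher in Tex19.1-/- testes, with a median change of 0.02 over all expressed probes. Tex19.1 itself (ILMN_2615917) was above background in all 4 controls and in 0 of 4 Tex19.1-/- testes, at least 4.33-fold lower. The position of this probe relative to the deletion was not determined. Mean array signals were 90.8 to 159 (controls) and 79.0 to 126 (Tex19.1-/-).

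Lactate is a main fuel of developing germ cells. Sertoli cells, the supporting cells of the seminiferous tubule, take up glucose, ferment it to lactate and release the lactate, which spermatocytes and spermatids import and oxidise. Lactate dehydrogenase is a tetramer whose A (muscle-type) and B (heart-type) subunits are made in most tissues, whereas the C subunit is made almost only in testis, starting in meiotic spermatocytes. Of the transporters, Slc16a3 (MCT4) is known for lactate export from glycolytic cells, and Slc16a1 (MCT1) and Slc16a7 (MCT2) for exchange and uptake. Slc2a1 (GLUT1) is the widespread basal glucose transporter, and Slc2a3 (GLUT3) is a high-affinity one known from neurons and sperm. A whole testis holds all of these cells, and fewer cells of a type cannot be told apart from less RNA per cell.

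The start regions of the 3 dehydrogenase genes are shown because the main comparison is between these related genes. Windows of 300 bases (250 before to 50 after an annotated start, RefSeq, GRCm38.p6) were available for 6 of the 9 genes. Ldhc and Ldha lie on chromosome 7 with 1 annotated gene between them, and Ldhb lies on chromosome 6. Capitals mark matches, on either strand, to TGACGT (the core of the cAMP response element), GGGCGG (the GC box) and ACGTG (the core of the hypoxia response element).
Ldhc, chr7:46861013-46861312, plus strand: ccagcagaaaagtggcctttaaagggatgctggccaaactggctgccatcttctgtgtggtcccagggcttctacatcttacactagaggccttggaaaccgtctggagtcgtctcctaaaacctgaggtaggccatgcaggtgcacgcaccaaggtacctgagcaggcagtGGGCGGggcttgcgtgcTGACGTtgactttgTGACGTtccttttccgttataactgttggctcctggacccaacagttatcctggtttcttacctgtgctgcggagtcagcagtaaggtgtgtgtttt
Ldha, chr7:46845554-46845853, plus strand: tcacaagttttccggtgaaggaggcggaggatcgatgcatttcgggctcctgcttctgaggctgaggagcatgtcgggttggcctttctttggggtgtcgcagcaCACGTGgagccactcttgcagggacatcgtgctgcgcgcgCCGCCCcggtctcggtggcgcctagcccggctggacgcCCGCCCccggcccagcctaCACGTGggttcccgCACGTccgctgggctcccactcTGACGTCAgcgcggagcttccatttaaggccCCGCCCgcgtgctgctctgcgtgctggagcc
Ldhb, chr6:142507908-142508207, minus strand: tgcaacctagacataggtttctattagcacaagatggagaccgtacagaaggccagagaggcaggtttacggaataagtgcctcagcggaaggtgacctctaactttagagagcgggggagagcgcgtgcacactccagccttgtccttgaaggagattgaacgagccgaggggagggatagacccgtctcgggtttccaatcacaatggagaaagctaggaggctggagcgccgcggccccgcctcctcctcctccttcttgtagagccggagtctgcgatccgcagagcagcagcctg
The Ldhc window held TGACGT at 61 and 47 bases before the start and a GC box at 78 bases before it. The Ldha window held TGACGT on both strands as 1 palindrome, 3 GC boxes and 5 matches to ACGTG, some of them the same bases read on both strands. The Ldhb window and the second annotated windows of Ldhc and Ldha held 0 matches. Of 32851 mouse start windows of the same length, 7.51% held TGACGT, 35.7% the GC box and 19.6% ACGTG. These matches describe the letters only.

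Ldhc and Slc2a3 were the genes of this group with lower RNA in Tex19.1-/- testes, by about 8-fold and 4-fold. Of the somatic isozymes, Ldha was lower in value in every mutant animal but missed the threshold, and Ldhb values overlapped between genotypes. In all, 4 of the 8 expressed probes (3 of Ldhc, 1 of Slc2a3) were called lower, against 1.63% of all expressed probes, and 0 were called higher, against 0.141%. Because 3 of these 4 probes read the same gene, they stand for 2 of 6 expressed genes. The genes of the group were chosen with earlier results of these data known. The genotypes did not overlap for 5 probes that were lower (6.06% of all expressed probes) and for 1 that was higher (4.18%). The median change of the 8 probes was -1.41. The 4 calls were lost, at about the same or larger fold, with signals below 0 set to 0 (adjusted p 0.013 to 0.043 in limma) and, at -2.77 to -1.73, with median scaling (0.049 to 0.13), settings under which 20 and 1 of all probes were called lower. With an intensity trend and robust variance fitted together, 2 of the 4 were still called (Ldhc ILMN_1248952 and Slc2a3).

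**Figure D1:**
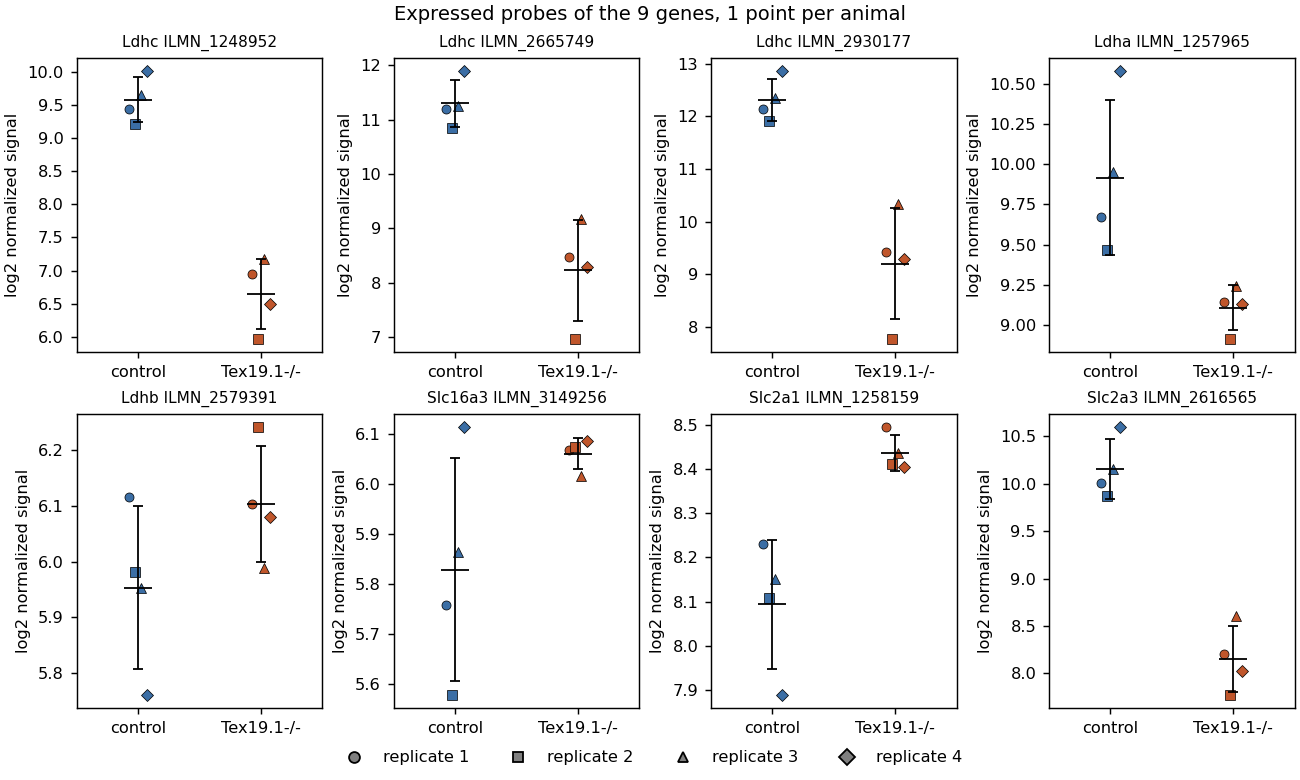
Log2 normalized signal of the 8 expressed probes in each of 4 control and 4 Tex19.1-/- testes, with 1 panel a probe and a separate axis range in each panel. Horizontal lines are means, bars are SDs and marker shapes are replicate numbers. The genotypes stand apart for the 3 Ldhc probes, Ldha, Slc2a3 and Slc2a1, and overlap for Ldhb and Slc16a3.

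Ldhc encodes the testis isozyme. Its brightest probe, ILMN_2930177, measured 12.14, 11.92, 12.34 and 12.86 in the controls, in order of replicate number, and 9.43, 7.77, 10.33 and 9.29 in the Tex19.1-/- animals. Every mutant animal was below every control, and Tex19.1-/- replicate 2 was the lowest. The means were 12.31 ± 0.40 and 9.20 ± 1.06 (SD, n = 4 each), a log2 change of -3.11 (SE 0.39, adjusted p = 0.00075 in limma), or 8.64-fold lower. Before normalization its signal was 4768 to 6328 in controls but 177 to 958 in mutants. The other Ldhc probes fell by similar amounts in this fit. ILMN_2665749 averaged 11.30 ± 0.43 and 8.23 ± 0.93, a change of -3.07 (SE 0.36, adjusted p = 0.00042), with all animals detected. ILMN_1248952, the dimmest, averaged 9.58 ± 0.34 and 6.65 ± 0.53, a change of -2.93 (SE 0.23, adjusted p = 6.4e-05), and was detected in 3 of 4 mutants. As folds these are 8.41-fold and 7.63-fold lower, and Ldhc RNA was above background in every mutant on the brighter probes. With signals below 0 set to 0, ILMN_1248952 changed by -3.90 and ILMN_2930177 by -3.25, so the fold of the dimmest probe depends on the processing. The spread among mutants (SD 0.53 to 1.06 over the 3 probes) exceeded that among controls (0.34 to 0.43), with no test of this difference.

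Ldha, the somatic subunit of glycolytic tissues, measured 9.67, 9.47, 9.95 and 10.58 in controls and 9.15, 8.91, 9.24 and 9.13 in Tex19.1-/- animals (probe ILMN_1257965). The genotypes did not overlap, and control replicate 4 stood highest. The means of 9.92 ± 0.48 and 9.11 ± 0.14 (n = 4 each) gave a change of -0.81 (SE 0.19, 95% interval -1.42 to -0.19), or 1.75-fold lower. Its adjusted p in limma was 0.034, above the threshold. Its call depended on the fit: with the replicate number as a block the adjusted p was 0.0034, without control replicate 2 it was 0.0086 (change -0.97), and with median scaling of the arrays it was 0.61 (change -0.53). Over all 19 alternatives the change ran from -0.97 to -0.53.

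Ldhb, the somatic subunit of oxidative tissues, was near the detection limit. Its probe ILMN_2579391, annotated to a cDNA clone rather than to a RefSeq transcript, measured 6.12, 5.98, 5.95 and 5.76 in controls and 6.10, 6.24, 5.99 and 6.08 in mutants, and was detected in 3 of 4 animals of each genotype. These values overlapped. The change of 0.15 (SE 0.11, 95% interval -0.07 to 0.37) had an adjusted p of 0.59 in limma. It was 0.09 without control replicate 4 and 0.56 with signals below 0 set to 0, so its size is poorly defined.

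The isozymes were compared directly by subtracting their log2 values within each animal (for Ldhc the mean of its 3 probes, for Ldha and Ldhb the single probe) and asking whether that difference shifted between genotypes. Levels of different probes are not comparable, so only the shift is read. Ldhc minus Ldha was 1.25, 1.19, 1.13 and 1.01 in controls and -0.86, -2.02, -0.35 and -1.11 in Tex19.1-/- animals. Every mutant was below every control. Ldhc thus fell by 2.23 more than Ldha on the log2 scale (95% interval -3.09 to -1.37), a 4.69-fold shift. Relative to Ldhb, the shift of Ldhc was -3.19 (-4.49 to -1.88) and that of Ldha -0.96 (-1.76 to -0.15), but Ldhb was not detected in 1 of 4 animals of each genotype, so both shifts are measured against a probe near background. Over the alternatives the Ldhc against Ldhb shift ran from -4.07 to -2.77. Each of the 3 comparisons had a two-sided exact permutation p of 0.0286 (n = 4 each), the smallest that 4 against 4 allows, and 0.0286 after adjustment over the 3. The Ldha against Ldhb shift lost its call with median scaling (-0.74, exact p = 0.31) and when any 1 of the 4 Tex19.1-/- animals was left out (exact p up to 0.0857). Exchanging genotypes only within replicate numbers gave an exact p of 0.125 for each comparison, the smallest that 4 pairs allow.

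**Figure D2:**
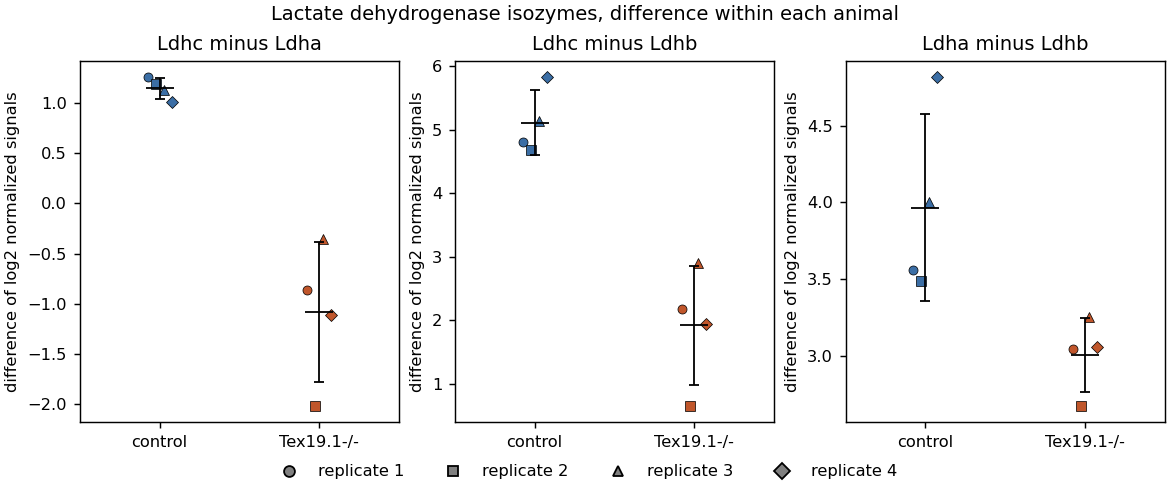
Difference of log2 normalized signals between lactate dehydrogenase isozymes within each animal, for 3 pairs, with Ldhc as the mean of its 3 probes and a separate axis range in each panel. Lines are means, bars are SDs (n = 4 each) and marker shapes are replicate numbers. Ldhc minus Ldha lies between 1.01 and 1.25 in controls and between -2.02 and -0.35 in Tex19.1-/- testes.

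The glucose transporters differed in direction, and only Slc2a3 passed the test. Slc2a3 (ILMN_2616565) measured 10.01, 9.87, 10.15 and 10.60 in controls and 8.21, 7.77, 8.60 and 8.02 in Tex19.1-/- animals. The gap between the genotypes was wider than the range within either. The change of -2.01 (SE 0.18, 95% interval -2.58 to -1.43, adjusted p = 0.00015 in limma) was 4.01-fold lower. Unnormalized signals were 1198 to 1385 in controls but 134 to 263 in mutants. Slc2a1 (ILMN_1258159) measured 8.23, 8.11, 8.15 and 7.89 in controls and 8.49, 8.41, 8.44 and 8.40 in mutants. The mutants lay close together and above every control. The change of 0.34 (SE 0.10, 95% interval 0.16 to 0.53) was 1.27-fold higher, with an adjusted p of 0.10 in limma, so it was not called. It was above 0 under all 19 alternatives (0.27 to 0.60), but the unnormalized signals overlapped, at 139 to 359 in controls and 184 to 331 in mutants.

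The lactate transporters and basigin were at or below the detection limit. Slc16a3 had 3 probes, of which only ILMN_3149256 was expressed, in 1 of 4 controls and 3 of 4 mutants. It measured 5.76, 5.58, 5.86 and 6.11 in controls and 6.07, 6.07, 6.02 and 6.09 in mutants, which overlap. The change of 0.23 (SE 0.12, 95% interval -0.04 to 0.51) had an adjusted p of 0.40 in limma. With signals below 0 set to 0 the change was 1.30, so its size is poorly defined. The other 2 Slc16a3 probes, the Slc16a1 and Slc16a7 probes and both Bsg probes were detected in 0 of 8 arrays. Their signals lay between -14.2 and 15.5, not above background, and no change is given for them. Other testis probes of common genes were also undetected, Sycp1 and Sycp3 of the synaptonemal complex of meiotic chromosomes among them. An undetected probe therefore does not show that the RNA is absent.

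**Figure D3:**
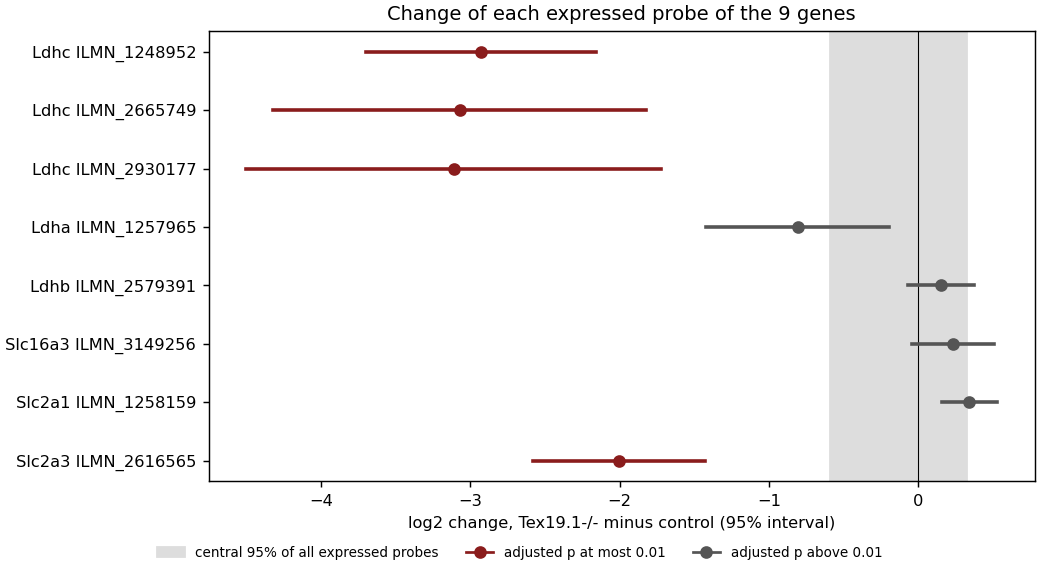
Log2 change (Tex19.1-/- minus control) of the 8 expressed probes with 95% intervals from each probe's own spread (n = 4 each). The grey band holds the central 95% of changes of all expressed probes, -0.59 to 0.32. The Ldhc and Slc2a3 probes lie far to the left of it and are the ones called at an adjusted p of at most 0.01. Ldha (-0.81) also lies to the left of the band and Slc2a1 (0.34) just to the right of it.

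Slc16a3 lies on chromosome 11 close to the targeted gene, with 10 annotated genes between it and Tex19.1 in RefSeq. DNA of the original strain can stay linked to a targeted allele, and its effect and that of losing Tex19.1 cannot be told apart for neighbours. Tex19.1 itself was left out of the neighbours counted here. Among the 20 nearest other genes with an expressed probe, 10 on each side of Slc16a3, 0 were called in limma. At an unadjusted p below 0.05, 2 of them were lower and 1 higher, and the median change of the 20 was 0.05. Over all 10902 genes, 8.71% were lower and 6.76% higher at that unadjusted p. Cybc1, needed for the phagocyte oxidase, had the lowest value (-0.46, adjusted p = 0.20), and Fn3krp, a ketosamine kinase, was at 0.36 (adjusted p = 0.19).

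Several probes ranked the animals alike. In controls the 3 Ldhc probes, Ldha and Slc2a3 were highest in replicate 4, followed by 3, 1 and 2, and in Tex19.1-/- animals highest in replicate 3, followed by 1, 4 and 2. Of all expressed probes, 145 (0.76%) had this order in both genotypes, among them 1 of 12 mid to late pachytene genes. The summed signal of the 20 genes around Slc16a3, whose genotypes overlapped, had it too, so the order is not particular to probes that were lower. Slc2a1 and Ldhb did not have it: control replicate 4 was their lowest control. That array also had the lowest mean signal of the controls (90.8), and in the unnormalized signals these 5 probes no longer shared 1 order. The part of array brightness in the shared order was not tested.

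Outside the group, 3 genes had the profile closest to the brightest Ldhc probe, by the root mean square difference of mean-centred log2 values over the 8 arrays. Piwil1, a piRNA-binding protein of spermatocytes, was closest at 0.37 (ILMN_2781611, change -2.66). Catsperz, which encodes a part of the CatSper channel of sperm, was at 0.53 (change -2.69). Mdh1b, a relative of the cytosolic malate dehydrogenase gene, was at 0.57 (change -2.28). The same distance was 0.10 and 0.37 for the other Ldhc probes, 0.72 for Slc2a3 and 1.28 for Ldha. Thus 13 genes outside the group lay closer to Ldhc than Slc2a3 did, and 192 closer than Ldha did. This distance mostly reads the size of the genotype difference.

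Glycolysis upstream of lactate uses some enzymes in forms particular to germ cells. Of these germ cell forms, 4 of 5 on the array were expressed. Pgam2, the phosphoglycerate mutase of muscle and sperm, fell from 7.69 ± 0.77 to 5.63 ± 0.31 (change -2.06, SE 0.29, adjusted p = 0.0013 in limma) and was detected in 1 of 4 mutants. It was the 1 of 4 genes called, against 1.98% lower among all 10902 genes with 1 probe each (0.11% were higher). This list, too, was chosen with earlier results of these data known. Pgk2, the germ cell phosphoglycerate kinase, was detected in 4 of 4 controls and 0 of 4 mutants and was at least 1.35-fold lower (adjusted p = 0.13). Eno4, the sperm enolase, was at -0.64 (adjusted p = 0.068) and, on its other probe, at -0.43. Gk2, a germ cell glycerol kinase, was not detected in any control. The median was -0.64, or -0.54 with genes not detected in a genotype at their bound, beside 0.03 over all genes. The Pgam2 call was lost with signals below 0 set to 0, with median scaling and with an intensity trend and robust variance together.

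Of 12 glycolytic genes used by somatic cells, 0 were called in limma, with 1 lower and 2 higher at an unadjusted p below 0.05 and a median of 0.11. Over all genes, 1.98% were called lower and 0.11% higher, and 8.71% and 6.76% were so at that unadjusted p. Pgam1, the paralogue of Pgam2, was at 0.26 (adjusted p = 0.28), and Tpi1, triose phosphate isomerase, at -0.30 (adjusted p = 0.31), with its other probes at -0.71 and -0.24. Of 8 expressed genes that carry pyruvate into mitochondrial oxidation, 0 were called (2 lower and 1 higher unadjusted, median -0.01). In that set Pdha1 and Pdhb, the paired subunits of pyruvate dehydrogenase, were at 0.29 (adjusted p = 0.20) and -0.44 (adjusted p = 0.31). The other Pdhb probe was at -0.08. Of 9 expressed related transporters and partners among 25 on the array, 0 were called and 0 had an unadjusted p below 0.05 (median -0.00). Ldhd, which oxidises D-lactate, was at 0.21 (adjusted p = 0.39), and Emb, embigin, the other partner of lactate transporters, at -0.27 (adjusted p = 0.59). Of 10 expressed hypoxia response genes, a class that can include Ldha, Slc2a1 and Slc16a3, 0 were called (1 lower unadjusted, median 0.07). Kdm3a, a histone demethylase, was at -0.36 (adjusted p = 0.11) and P4ha1, a collagen prolyl hydroxylase, at 0.22 (adjusted p = 0.40).

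**Figure D4:**
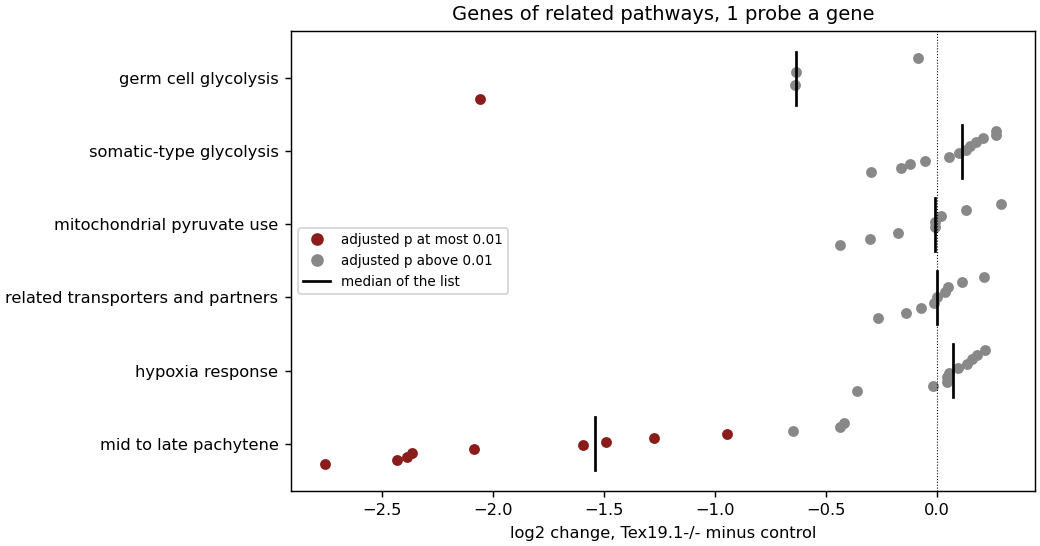
Log2 change (Tex19.1-/- minus control) of each expressed gene in 6 lists, 1 probe a gene, with the list median as a black line. Red points have an adjusted p of at most 0.01, and genes not detected in a genotype are drawn at their fitted value, which is not a bound. Medians run from -1.54 for mid to late pachytene genes and -0.64 for germ cell glycolysis to 0.11 for somatic-type glycolysis.

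Markers of later meiotic cells were lower in the same testes as Ldhc, Slc2a3 and Pgam2. Of 12 expressed mid to late pachytene genes, 9 were called lower, with a median of -1.54, against 1.98% of all genes (0.11% higher). The list was chosen with earlier results of these data known, so this comparison is not an independent test. Piwil1 (ILMN_2769052) was at -2.76, Tdrd6, a chromatoid body component, at -2.44, Adam5, a sperm surface protein, at -2.39 and Atp8b3, a sperm phospholipid flippase, at -2.37. The summed normalized signal of the list, on a linear scale, was 11735 to 17323 in controls and 5448 to 8016 in mutants, with Hspa2, a meiotic heat shock protein, its brightest gene. Before normalization the sums were 13748 to 15627 and 3551 to 8162, which do not overlap either. Adam2, Acrv1, Mybl1 and Crisp2 had no detected probe. Early meiotic prophase genes included 2 of 11 called lower (Mlh3 at -0.65 and Spo11 at -0.63, both of meiotic recombination), with a median of -0.31. At an unadjusted p below 0.05 in limma, 7 were lower and 0 higher, against 8.71% and 6.76% of all genes. Their normalized sums were 5611 to 6542 in controls and 4204 to 5306 in mutants, and the unnormalized sums overlapped. Of 3 expressed spermatid genes 0 were called (2 lower unadjusted), with Acrbp at -0.87, and Prm1, Tnp1, Tnp2 and Odf1 were undetected. Spaca1 and Akap4 were not detected in any mutant. The normalized spermatid sum was 230 to 452 in controls and 201 to 217 in mutants. Unnormalized sums were 117 to 231 and 48.3 to 64.5, which do not overlap either. The normalized spermatogonial sum was 4166 to 4652 in controls and 4873 to 5255 in mutants, but the unnormalized sums overlapped (2724 to 5449 and 3030 to 4604), with 0 of 13 genes called and 1 lower and 2 higher unadjusted (Sohlh1 at 0.28, and Id4 detected in 3 of 4 controls and 0 of 4 mutants, at least 1.12-fold lower). The part of these cell types in the Ldhc and Slc2a3 changes was not tested.

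Markers of the somatic cells that also use Slc2a1 and Ldha were called in 0 cases, against 1.98% lower and 0.11% higher of all genes. Sertoli genes had a median of 0.12 over 10 genes and normalized sums of 21049 to 23883 in controls and 22189 to 25299 in mutants, with Fshr, the follicle-stimulating hormone receptor, at 0.32 on its brightest probe but -0.12 and 0.03 on its others, and Dhh, a Sertoli cell ligand, at 0.22. At an unadjusted p below 0.05 in limma, 1 of 10 Sertoli, 1 of 4 Leydig and 2 of 4 macrophage genes were higher. The other somatic lists had 0. Over all genes, 6.76% were higher and 8.71% lower at that p. Medians were 0.25 for Leydig cells (Cyp17a1 at 0.76), 0.17 for peritubular myoid cells (Myh11 at 0.27) and 0.01 for endothelium (Pecam1 at 0.13, Tek at -0.08). Star and Tagln were not detected in any control, and with such genes at their bound the Leydig and myoid medians were 0.16 and 0.00. Medians were 0.16 for macrophages (Lyz2 at 0.37, Mrc1 at 0.27) and 0.03 for erythroid cells (Hba-a1 at 0.08, Alas2 at -0.01). The part of these cell types in the Slc2a1 value was not tested.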

How the data were processed

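Total RNA of 8 whole testes was hybridised to 1-colour Illumina Beadchips. The authors deposited probe intensities with detection p-values from BeadStudio, and a log2 table normalized between arrays. Groups came from the genotype labels. Here intensities were raised by a constant per array to reach a lowest value of 1, taken to log2 and quantile-normalized (limma 3.58.1 in R 4.3.3). The result differed from the deposited log2 table by at most 0.0144. Probes with a detection p-value below 0.01 in at least 1 array were kept (42.2% of 45281), and genotypes were compared with lmFit and eBayes (6 residual degrees of freedom), following the study's threshold of 0.01. SEs are moderated, and 95% intervals use each probe's own variance. Isozyme differences were tested by exact permutation of genotypes.

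Gene symbols came from the platform annotation and were updated or checked through RefSeq for 16239 of the kept probes. Of kept probes, 16257 had 1 symbol, 7 several and 2825 none. Lists use the brightest kept probe of a gene. The members and lists were chosen with earlier results of these data known. Named genes were all probes of the 9 genes, up to 4 called genes in each list with the largest change (or, with none called, the 2 with the largest statistic), and the 3 closest to Ldhc in profile. Sums are of normalized signals on a linear scale over the expressed genes of a list, unless called unnormalized. Probe sequences were not used here, so cross-hybridisation was not tested.

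Replicate numbers appear in both genotypes. Deviations of same-numbered animals correlated at 0.21, 0.52, 0.10 and 0.23, but numbers 3 and 4 correlated more with each other, at up to 0.45. The main fits and permutations did not pair animals. Pairing by replicate number was used only in the alternative with the number as a block. What a number marks is not given in the sources used here, nor are chip or scan batches. Tested on simulated data over 19089 probes, the fit called 83.6% of probes changed 2-fold and 98.4% of those changed 4-fold. The rate for probes near background, such as Ldhb and Slc16a3, was not tested separately. The rate under other background or normalization settings was not tested either. Alternatives covered background, normalization, filter, variance model, weights, the block and leaving out each animal. The labels number the animals within each genotype.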

Additional observations from a re-analysis of the deposited data

How the results depend on the processing

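The direction of each of the 8 expressed probes and of the 3 isozyme differences was kept under every alternative run. The count of all expressed probes called lower was 20 with signals below 0 set to 0, 1 with median scaling, 470 with the replicate block and 151 to 313 when 1 animal was left out. The count called higher was 1, 0, 48 and 16 to 27 in the same order. Median scaling moved the median change of all probes from 0.02 to 0.14. The count of Ldhc, Ldha and Slc2a3 probes called lower was 0 with signals below 0 set to 0, 0 with median scaling, 2 with an intensity trend and robust variance (Ldhc ILMN_1248952 and Slc2a3) and 5 with the replicate block, which adds Ldha. Adjusted p-values of the 3 Ldhc probes and Slc2a3 were 0.013 to 0.043 with signals below 0 set to 0 and 0.049 to 0.13 with median scaling. With the trend and robust variance the brighter Ldhc probes had 0.027 and 0.041. The germ cell glycolysis count was 0 in each of these 3 settings. Of the isozyme differences, Ldha minus Ldhb was -0.745 with median scaling and -1.13 to -0.67 when 1 animal was left out. With the replicate block the differences stayed at -2.23, -3.19 and -0.96, with exact permutation p of 0.125 each (4 pairs). The block changed no other call among the 8 probes, the pathway lists and the genes next to Slc16a3. The cause of these differences was not tested. Ldhb and Slc16a3 could not be fitted under the stricter filter, which asks for detection on all 4 arrays of at least 1 genotype. Probes near background, Ldhb and Slc16a3 among them, limit what can be detected.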
